A study of Mus musculus with 6 samples.

Results

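The signalling lymphocyte activation molecule (SLAM) family is a set of immunoglobulin-type receptors on blood cells, and the genes described here are its receptors Slamf1, Slamf6, Slamf7, Slamf9, Cd48, Cd84 and Ly9 and its adaptors Sh2d1a and Sh2d1b1. They were chosen by symbol, which gave 9 genes of the 55401 listed in each deposited count table. The libraries came from germinal centre B cells that had been sorted by flow cytometry from spleens of wild-type (WT) C57BL/6 mice. All mice were injected intraperitoneally with sheep red blood cells (SRBC), an antigen that needs T cell help, were challenged 5 days later and were killed on day 12. The sorted cells were 2 subsets named DP and DN, with 3 libraries each, and the labels do not say which surface markers these names stand for or the age of the mice. Per the design text, DP and DN cells were taken from each of 3 mice. Which mouse a library came from is not labelled, so the spread behind each p-value is that among libraries and may be technical.

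Most SLAM receptors bind a copy of themselves on the neighbouring cell, so that the same molecule acts as ligand and as receptor between B cells and T cells. CD48 differs in being held in the membrane by a lipid anchor, and in the mouse it is bound by CD244 (2B4) and CD2. Tyrosines in the cytoplasmic tails, placed in so-called switch motifs, bind the small adaptors SAP (Sh2d1a) and EAT-2 (Sh2d1b1) or, without them, phosphatases such as SHP-1 and SHIP-1. SAP is known from T cells and natural killer (NK) cells, where it is needed for T cell help to germinal centres, and EAT-2 from NK cells and phagocytes.

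DP libraries held 17509384 to 20538024 counts assigned to genes and DN libraries 8904415 to 11897360. A floor of 3 counts equalled 0.155 to 0.183 CPM (normalised counts scaled to a common library size) in DP libraries and 0.235 to 0.315 CPM in DN libraries, which covers counting error only. The transcriptomes of the subsets differed widely. Of 11296 genes tested with edgeR's quasi-likelihood test, 75.9% were called at an adjusted p under 0.05, 38.3% as higher in DP and 37.6% as lower. The 3 DP libraries lay wholly above or wholly below the 3 DN libraries for 76.9% of the tested genes, above for 39.0% and below for 38.0%. All 14 germinal centre B cell markers were expressed in both subsets, with a summed level of 2651 to 2735 CPM in DP and 6306 to 6403 CPM in DN, and 13 of them were called lower in DP.

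The receptors that carry switch motifs are shown by the codons of these motifs, because these are the stretches through which the family reaches its adaptors. The motif was read from the longest coding sequence of each gene (GENCODE M21, mm10) as threonine, any residue, tyrosine, 2 further residues, and valine or isoleucine. Capitals mark the tyrosine codon, and the number after the name is the position of that codon, counted from the start codon.
Ly9 codon 587: actccaTATgataaagtg
Ly9 codon 625: acaatcTACtgctctgtg
Slamf1 codon 288: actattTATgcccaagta
Slamf1 codon 335: acagttTATgccagtgtg
Slamf6 codon 295: actgtgTATgcacaagtc
Slamf6 codon 319: acaattTACtccatagtt
Cd84 codon 265: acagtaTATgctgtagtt
Cd84 codon 300: accattTATtcctcagtg
Slamf7 codon 302: acatttTATtccactgtg

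Ly9, Slamf1, Slamf6 and Cd84 thus had 2 motifs each in the last 130 codons, the stretch taken as the tail, and Slamf7 had 1. Of 21526 coding sequences scanned, 2.27% held at least 1 match in that stretch and 11 held 2 or more. These 11 comprised the 4 members just named, the related receptor Cd244a and 6 genes outside the family. Slamf9, which is known to lack a signalling tail, and both adaptors had no match in the tail or elsewhere. The lipid-anchored Cd48 had none in the tail and 1 at codon 107 of 240. A match shows only that these letters are present. Receptors with 2 motifs were found on both sides of the main comparison below, Ly9 and Slamf1 among the genes higher in DP and Slamf6 and Cd84 among those lower in DP. With counts scaled by library totals alone, Ly9 and Slamf1 also lay below 0, at log2 fold changes of -0.10 and -0.02.

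Of the 9 members, 7 passed the filter on low counts, 3 were called lower in DP, 2 were called higher, 2 were not called, and Slamf9 and Sh2d1a were too scarce to test. The receptors Slamf7, Cd84 and Slamf6 were about 2-fold lower in DP, whereas Slamf1 and Ly9 were higher by 1.13-fold and 1.07-fold. Cd48 and Sh2d1b1 did not pass the test. With 5 of 7 tested members called, against 75.9% of all tested genes, the share called was near the background and is no result about the family. The median log2 fold change was -0.17 over the tested members and 0.01 over all tested genes. In sorted bulk cells, fewer cells with a transcript and less of it per cell cannot be told apart.

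**Figure D1:**
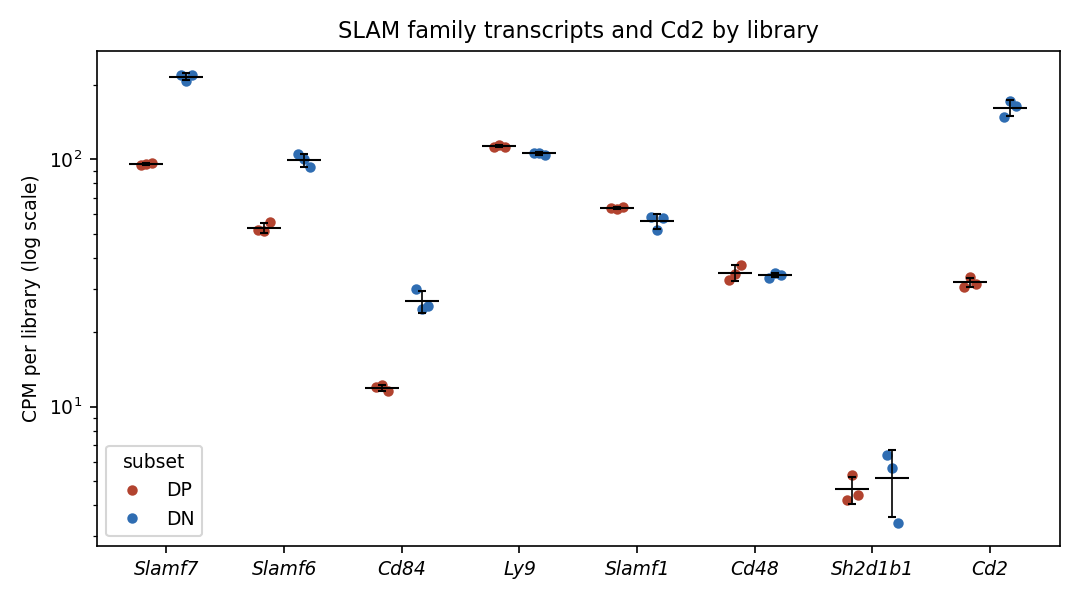
Level of each SLAM member with enough counts to test, and of the related receptor Cd2, in every library, in CPM on a log axis. Points are libraries, horizontal lines are means and vertical bars are 1 SD (n = 3 each), with DP in red to the left of DN in blue. Slamf7, Slamf6, Cd84 and Cd2 lie lower in all 3 DP libraries than in any DN library, and the libraries overlap for Cd48 and Sh2d1b1.

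Slamf7 (CRACC, a receptor that binds itself) had the highest level per kilobase of the members in DN. It had 94.7, 95.9 and 96.4 CPM in the DP libraries, against 220.4, 208.1 and 219.9 CPM in the DN libraries. All DP libraries lay far below all DN libraries, and the spread within each subset was small. The log2 fold change was -1.18 ± 0.04 (SE), with a 95% interval of -1.26 to -1.09 and an adjusted p of 4.00e-34 in edgeR's quasi-likelihood test. Among tested genes 10.1% had a lower log2 fold change, and 12.8% were called with a level at least 2-fold lower in DP.

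Cd84, a receptor that binds itself and is known to prolong contacts between T and B cells, had 12.0, 12.2 and 11.5 CPM in DP libraries, against 29.9, 24.8 and 25.5 CPM in DN libraries. The subsets did not overlap, and the first DN library was the highest. This gave a log2 fold change of -1.18 ± 0.09, with an interval of -1.36 to -1.0 and an adjusted p of 5.40e-18 (edgeR). Slamf7 and Cd84 differed by the same factor, 2.26, although Slamf7 averaged 95.7 ± 0.909 CPM in DP and 216 ± 6.97 CPM in DN while Cd84 averaged 11.9 ± 0.343 and 26.8 ± 2.75 CPM (SD, n = 3 each).

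Slamf6 (Ly108 in mice), another receptor that binds itself and is known for its part in the adhesion of T cells to B cells, had 51.6, 51.3 and 55.7 CPM in DP libraries. In DN libraries it had 105.0, 100.6 and 93.1 CPM, so that even the lowest DN library was well above the highest DP library. The log2 fold change was -0.92 ± 0.05, with an interval of -1.02 to -0.81 and an adjusted p of 5.12e-24 (edgeR). Slamf6 was 1.89-fold lower in DP.

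The promoter windows of these 3 receptors are shown because the genes were lower together in DP. Each runs from 250 bases before to 50 bases after the start in RefSeq (GRCm38.p6), and 7 of the 9 members had an entry there. The windows are chr1:171648950-171649249 on the minus strand for Slamf7, chr1:171839447-171839746 on the plus strand for Cd84 and chr1:171917212-171917511 on the plus strand for Slamf6. The Slamf7 window lies inside the gene as annotated in GENCODE M21, which begins at base 171653035 on the minus strand. Starts nearer that base were not searched. Capitals mark a match to any of the motifs searched.
Slamf7: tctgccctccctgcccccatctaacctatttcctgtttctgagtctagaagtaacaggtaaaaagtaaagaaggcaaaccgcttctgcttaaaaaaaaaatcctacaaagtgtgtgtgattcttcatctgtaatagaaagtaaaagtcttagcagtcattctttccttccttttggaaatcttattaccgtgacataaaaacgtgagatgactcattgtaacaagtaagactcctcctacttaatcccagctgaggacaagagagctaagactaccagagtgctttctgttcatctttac
Cd84: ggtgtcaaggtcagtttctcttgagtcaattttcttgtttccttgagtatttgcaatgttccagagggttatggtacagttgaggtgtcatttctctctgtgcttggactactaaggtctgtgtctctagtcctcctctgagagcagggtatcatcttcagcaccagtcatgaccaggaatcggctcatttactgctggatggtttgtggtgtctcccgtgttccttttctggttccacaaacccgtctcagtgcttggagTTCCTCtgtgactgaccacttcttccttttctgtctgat
Slamf6: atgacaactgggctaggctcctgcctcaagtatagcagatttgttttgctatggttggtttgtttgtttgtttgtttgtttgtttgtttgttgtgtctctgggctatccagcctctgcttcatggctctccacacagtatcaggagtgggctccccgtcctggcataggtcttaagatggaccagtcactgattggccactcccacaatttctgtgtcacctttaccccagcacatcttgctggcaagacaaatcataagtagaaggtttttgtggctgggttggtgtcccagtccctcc

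Both strands were searched for 8 short motifs, none of which was shared by the 3 windows. The PU.1-type motif GAGGAA, held by 28.3% of all 32851 promoter windows, was found once in Cd84, as TTCCTC at base 12 after the start, and in neither Slamf7 nor Slamf6. None of the 3 held the E-box CACGTG (7.15% of all windows), the ETS core CCGGAAGT (3.89%), the octamer ATGCAAAT (1.74%), the NF-kB motif (1.63%), the BCL6 and STAT motif TTCNNNGAA (8.30%), the EBF1 motif CCCNNGGG (13.7%) or the interferon regulatory factor motif (3.44%). In the tested members that were not called lower in DP, the window of Slamf1 held CCCNNGGG, that of Cd48 held CCGGAAGT and that of Sh2d1b1 held GAGGAA. The window of Slamf9, which was too scarce to test, held both GAGGAA and CACGTG. A missing match says only that these letters are not in the window.

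Slamf1 (CD150), the founding member of the family and a receptor that binds itself, had 63.9, 62.9 and 64.0 CPM in DP libraries, against 58.6, 51.9 and 58.1 CPM in DN libraries. The DP libraries lay close together just above the DN libraries, of which the second was lowest. On the log2 scale the difference was 0.17 ± 0.05, with an interval of 0.06 to 0.28 and an adjusted p of 0.00354 (edgeR). The direction depended on the scaling, since the log2 fold change was -0.02 when counts were scaled by library totals alone.

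Ly9 (CD229), a self-binding receptor with a duplicated set of outer immunoglobulin domains, had 112.5, 114.2 and 112.6 CPM in DP libraries and 106.5, 106.5 and 104.3 CPM in DN libraries. The subsets did not overlap, but the gap between them was small beside those of Slamf7, Cd84 and Slamf6. The log2 fold change was 0.10 ± 0.04, with an interval of 0.01 to 0.18 and an adjusted p of 0.0442 (edgeR). Ly9 was called higher in 6 of 16 alternative settings. It was not called without DN replicate 3 or without any 1 of the DP replicates, and with library totals alone it was called lower in DP at -0.10. Genes called with a log2 fold change within 0.5 of 0, as Slamf1 and Ly9 were, made up 25.5% of tested genes.

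Cd48, the lipid-anchored ligand of CD244 and CD2, had 32.5, 34.5 and 37.4 CPM in DP libraries and 33.3, 34.7 and 34.2 CPM in DN libraries, and these overlapped. The log2 fold change was 0.03 ± 0.07, with an interval of -0.11 to 0.17 and an adjusted p of 0.682 (edgeR). The interval leaves room for a small difference in either direction. The sign turned with library totals alone, where Cd48 was called lower at -0.16.

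**Figure D2:**
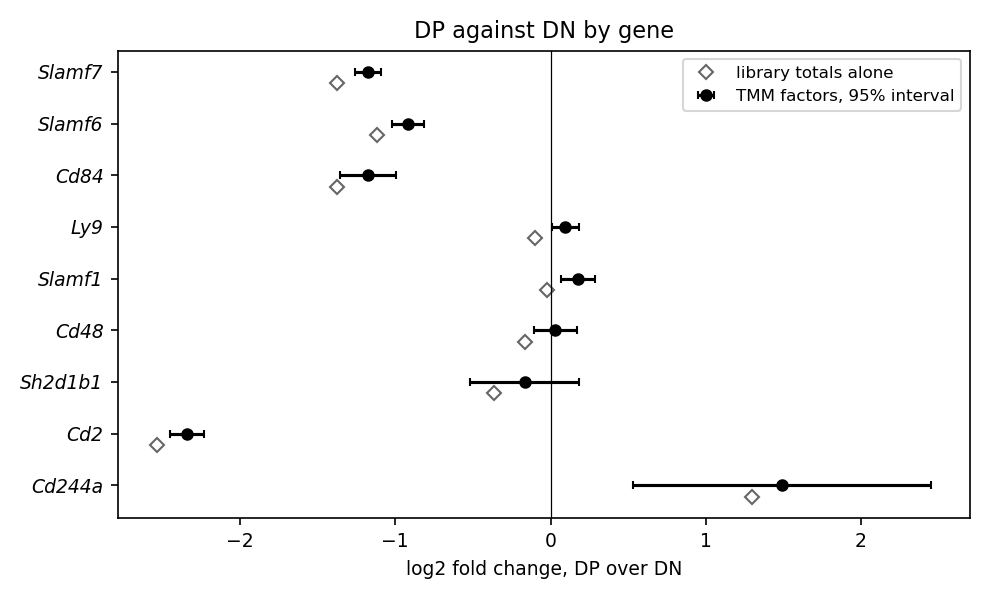
Log2 fold change of DP over DN for the 7 tested members and the related receptors Cd2 and Cd244a. Filled points with bars are the estimates with TMM factors and their 95% intervals, and open diamonds are the estimates with library totals alone. Slamf7, Slamf6, Cd84 and Cd2 lie left of 0 under both scalings, whereas Slamf1, Ly9 and Cd48 lie right of 0 with TMM factors and left of 0 with library totals.

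Scaling by library totals alone moved the median log2 fold change of all genes by -0.20, and the share of higher calls among all calls was then 38.0%, against 50.5% with TMM factors. A change of scaling moves all genes by nearly the same amount, so values are also given relative to the median of all genes. Slamf1 lay at 0.17, Ly9 at 0.09 and Cd48 at 0.03 above that median. Slamf7 and Cd84 lay at -1.18 and Slamf6 at -0.92.

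The adaptors were scarce in these cells. Sh2d1b1 (EAT-2) had 4.21, 5.28 and 4.40 CPM in DP libraries, against 6.36, 5.66 and 3.38 CPM in DN libraries, which overlapped widely. Its log2 fold change was -0.17 ± 0.18, with an interval of -0.52 to 0.18 and an adjusted p of 0.387 (edgeR). Its coding sequence was 91.7% identical to that of the neighbouring gene Sh2d1b2 with a shared run of 154 bases, and Sh2d1b2 had 0 counts in all 6 libraries. The value of Sh2d1b1 is uncertain to the extent that reads matched both copies, since the treatment of such reads is not known here.

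Sh2d1a (SAP) had 3, 0 and 0 counts in DP libraries and 0, 2 and 2 counts in DN libraries. Slamf9, an orphan receptor, had 0, 2 and 3 counts in DP libraries and 4, 3 and 2 counts in DN libraries. In CPM, Slamf9 reached at most 0.183 in a DP library and at least 0.205 in a DN library, so that the subsets did not overlap. Both genes were at or about the floor of 3 counts and below the filter, and their differences were not tested. Of the 16 T cell markers, 14 averaged under 1 CPM in both subsets and 3 were tested. Thy1, the most abundant, was called higher at 5.26 CPM in DP and 1.14 CPM in DN, Cd4 was called lower at 0.571 CPM in DP and 1.27 CPM in DN, and Lat, at 0.516 CPM in DP and 0.858 CPM in DN, was not called. The 9 NK cell markers summed to 0.296 to 0.671 CPM in DP libraries and 0.524 to 1.23 CPM in DN libraries, and Klrb1c was at 0 in all 6.

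Levels of different genes were compared per kilobase of exon. In DP the order was Ly9 at 34.2 ± 0.285 CPM per kb, Cd48 at 29.3 ± 2.08, Slamf7 at 20.9 ± 0.199, Slamf1 at 10.3 ± 0.0987 and Slamf6 at 4.88 ± 0.228 (SD, n = 3), with no overlap between neighbours. In DN the order was Slamf7 at 47.2 ± 1.52 CPM per kb, Ly9 at 32.0 ± 0.381, Cd48 at 28.7 ± 0.609, Slamf6 at 9.19 ± 0.559 and Slamf1 at 9.13 ± 0.605, and the last of these neighbours overlapped. Slamf7 therefore stood below Ly9 and Cd48 in DP and above both in DN. Cd84 and Sh2d1b1 followed in both subsets, at 1.90 and 1.82 CPM per kb in DP, where they overlapped, and at 4.27 and 2.02 CPM per kb in DN. With the length of the longest transcript in place of all exons, Slamf6 lay above Slamf1 in DN, at 17.4 against 12.7 CPM per kb, and below it in DP, at 9.23 against 14.4 CPM per kb.

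The make-up of the receptor transcripts was taken as each receptor's share of all SLAM receptor counts in a library, a value that scaling between libraries cannot move. Ly9 held 30.6%, 30.8% and 29.8% of receptor counts in DP libraries, against 19.2%, 20.2% and 19.5% in DN libraries. Slamf7 held 25.8%, 25.9% and 25.5% in DP libraries, against 39.8%, 39.5% and 41.1% in DN libraries. The receptor with the largest share was thus Ly9 in every DP library and Slamf7 in every DN library.

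**Figure D3:**
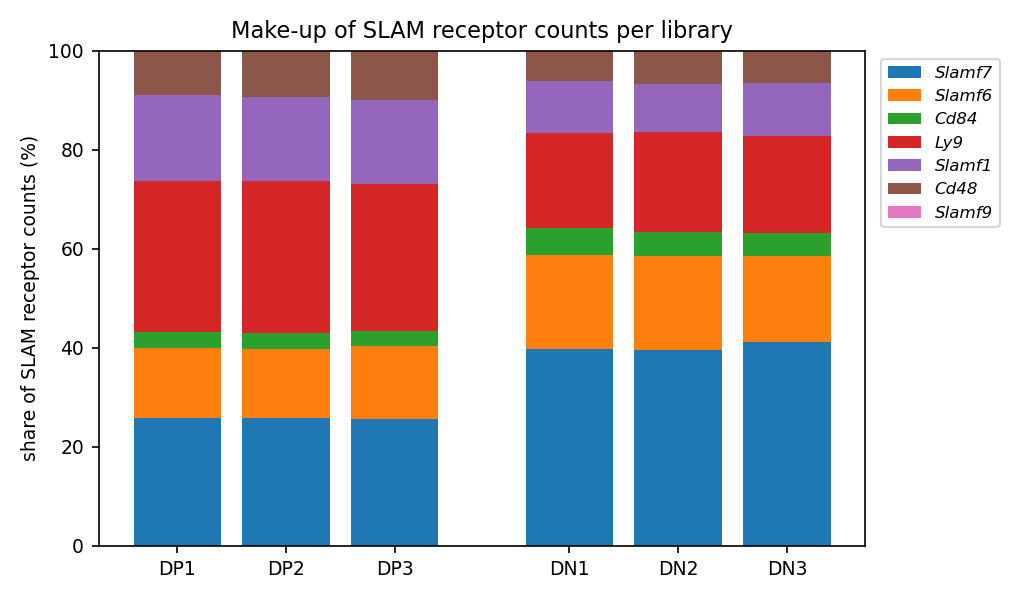
Share of SLAM receptor counts, in percent, taken by each receptor in every library, with DP libraries to the left of DN libraries. Slamf7 takes 25.5% to 25.9% in DP and 39.5% to 41.1% in DN, and Ly9 takes 29.8% to 30.8% in DP and 19.2% to 20.2% in DN.

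Slamf1 accounted for 17.1% ± 0.264 of receptor counts in DP and 10.4% ± 0.519 in DN, and Cd48 for 9.35% ± 0.528 in DP and 6.33% ± 0.294 in DN (SD, n = 3 each). Slamf6 accounted for 14.2% ± 0.481 in DP and 18.5% ± 0.953 in DN, and Cd84 for 3.20% ± 0.13 in DP and 4.96% ± 0.381 in DN. The shares of 6 receptors did not overlap between subsets, and that of Slamf9 did. An exact two-sided permutation test gave each of the 6 a p of 0.1, the smallest that 3 against 3 libraries allow, and 0.117 after Benjamini-Hochberg adjustment over 7 receptors. Since shares sum to a fixed total, a lower share of Slamf7 raises the others. Summed over the receptors, the level was 372 ± 5.44 CPM in DP and 539 ± 13.8 CPM in DN.

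Ratios between receptors within a library avoid that constraint. The ratio of Slamf7 to Ly9 counts averaged 0.846 ± 0.00905 in DP and 2.04 ± 0.0803 in DN, that of Slamf6 to Ly9 0.468 ± 0.0241 in DP and 0.941 ± 0.0471 in DN, and that of Cd84 to Ly9 0.105 ± 0.00246 in DP and 0.253 ± 0.0248 in DN. Each of these 3 ratios was lower in all DP libraries than in any DN library. The ratios of Slamf1 to Ly9, at 0.563 in DP and 0.531 in DN, and of Cd48 to Ly9, at 0.308 in DP and 0.322 in DN, overlapped between subsets. Exact two-sided permutation p-values over 6 ratios were 0.1 for the first 3, or 0.15 after adjustment, 0.2 for Slamf1 to Ly9 and 0.4 for Cd48 to Ly9.

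The receptor that pairs with CD48 moved most among the relatives of the family. Cd2, an adhesion receptor known from T cells that mouse B cells also express, had 30.6, 33.4 and 31.4 CPM in DP libraries, against 147.8, 172.1 and 165.2 CPM in DN libraries. The highest DP library was far below the lowest DN library. This was a log2 fold change of -2.34 ± 0.05, with an interval of -2.45 to -2.23 and an adjusted p of 2.11e-41 (edgeR), a level 5.06-fold lower in DP. There were 0.942, 0.967 and 0.840 Cd2 counts per Cd48 count in DP libraries, against 4.44, 4.96 and 4.83 in DN libraries (exact two-sided permutation p = 0.1, adjusted 0.15). The 16 T cell markers together summed to 7.35 to 8.54 CPM in DP libraries, of which Thy1 made up most, and to 5.26 to 7.86 CPM in DN libraries. Their part in the difference of Cd2 was not tested.

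Cd244a (2B4), the other receptor for CD48 and known from NK cells, was near the floor. It had 16, 15 and 16 counts in DP libraries and 2, 4 and 4 counts in DN libraries, with a log2 fold change of 1.49 ± 0.48 and an adjusted p of 0.00447 (edgeR). The gene passed the filter on low counts only through DP, and the adjusted p was 0.0639 without DN replicate 1. It was not tested, for want of counts, without DP replicate 1 or without DP replicate 3. Cd244a encloses Ly9 on the opposite strand with no shared exon bases. Slamf8, a relative known from macrophages, had at most 2 counts in any library.

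The 6 receptors that were expressed lie within 364547 bases of chromosome 1, at chr1:171588624-171953170 in mm10. In chromosome order these were Ly9 (chr1:171588624-171607410, minus strand), Slamf7 (chr1:171632403-171653035, minus strand), Cd48 (chr1:171682009-171705258, plus strand), Slamf1 (chr1:171767127-171801184, plus strand), Cd84 (chr1:171839697-171890718, plus strand) and Slamf6 (chr1:171917515-171953170, plus strand). Slamf9 lies further along at chr1:172475358-172478575, Sh2d1b1 before the cluster at chr1:170277320-170286769, and Sh2d1a at chrX:42502453-42529330. All 9 are annotated as protein-coding genes. With TMM factors, direction did not follow position along these receptors. Slamf7, which was lower in DP, lies between Ly9 and Cd48, which were not. Ly9 and Cd48 were also called lower with library totals alone. Gm10521, annotated as protein-coding, starts between Cd84 and Slamf6. It was called lower in DP at -1.76 ± 0.37, from 25 counts summed over DP libraries and 52 over DN libraries. Gm10521 passed the filter on low counts only through DN, at 0.477 CPM in DP and 1.66 CPM in DN.

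**Figure D4:**
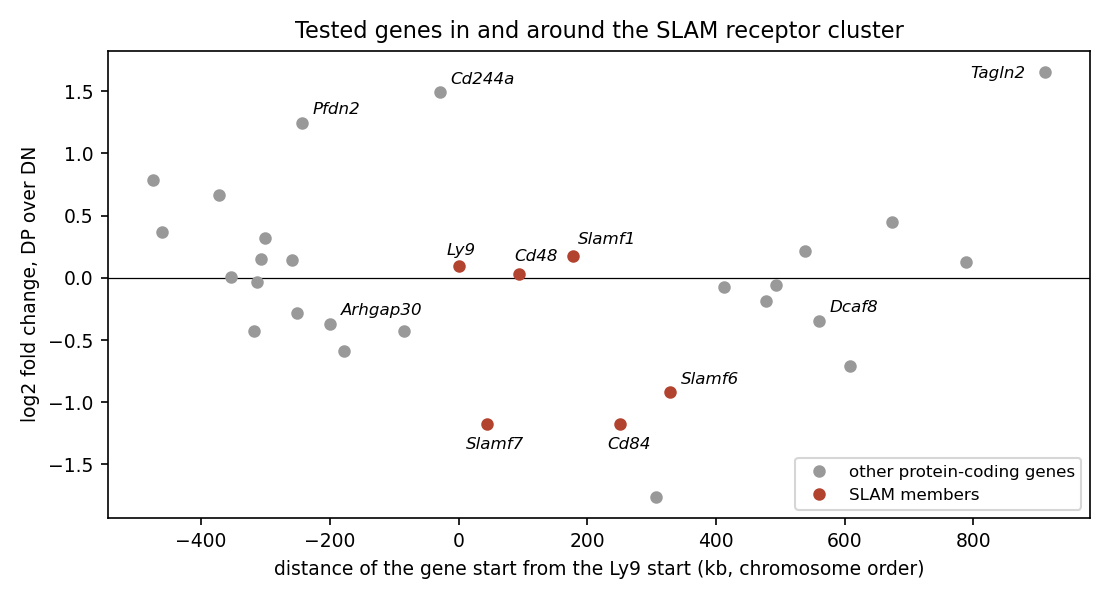
Log2 fold change of DP over DN against the distance of each gene's start from the Ly9 start, in kb, for tested protein-coding genes around the cluster, with SLAM members in red and other genes in grey. Slamf7, Cd84 and Slamf6 lie between -1.18 and -0.92, and Ly9, Cd48 and Slamf1 between 0.03 and 0.17, the last 3 turning below 0 with library totals alone.

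Other protein-coding genes that start within 500000 bases of the receptor genes numbered 51, of which 25 were tested, 8 were called higher in DP, 8 were called lower and 9 were not called, against 75.9% called among all tested genes. Their median log2 fold change was 0.01, the same to 2 decimals as over all tested genes. They include the relatives Cd244a, counted among the 8 called higher, and Slamf8, which was not tested. The 4 with the smallest p were Pfdn2, a subunit of the prefoldin chaperone, with 197 CPM in DP and 82.5 CPM in DN (log2 fold change 1.25 ± 0.05), the actin-binding Tagln2 with 48.1 and 15.3 CPM (1.65 ± 0.08), Arhgap30 with 980 and 1265 CPM (-0.37 ± 0.03) and Dcaf8, a ubiquitin ligase receptor, with 179 and 227 CPM (-0.34 ± 0.04).

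Downstream of the receptors, 21 signalling partners were followed, of which 19 were tested, 12 were called lower in DP, 2 were called higher, 5 were not called, and Prkcq and Dok2 had too few counts. Of all tested genes, 75.9% were called, 37.6% as lower and 38.3% as higher. The number of partners called in both directions together was near that background. By direction, the share called lower was above it and the share called higher below it. The list was written with earlier results known, and it was not tested as a list. Their median log2 fold change was -0.25, against 0.01 over all tested genes. Lyn, the main Src-family kinase of B cells, had 151.2, 160.6 and 156.7 CPM in DP libraries and 373.3, 361.6 and 369.8 CPM in DN libraries. These did not overlap, and the log2 fold change was -1.24 ± 0.04 (adjusted p = 4.53e-37, edgeR).

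Fyn, the kinase that SAP brings to SLAM receptors in T cells, averaged 69.6 ± 0.473 CPM in DP and 116 ± 2.52 CPM in DN, with a log2 fold change of -0.74 ± 0.05 (adjusted p = 5.48e-22, edgeR). Plcg1, a phospholipase that EAT-2 engages in NK cells, averaged 23.1 ± 1.55 CPM in DP and 42.9 ± 2.30 CPM in DN, with a log2 fold change of -0.89 ± 0.07 (adjusted p = 2.59e-17, edgeR). All 3 of these genes were lower in every DP library than in any DN library. Ptpn11 (SHP-2), a phosphatase that binds switch motifs, ran the other way at 195 ± 1.21 CPM in DP and 137 ± 2.45 CPM in DN, with a log2 fold change of 0.52 ± 0.04 (adjusted p = 9.24e-18, edgeR).

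**Figure D5:**
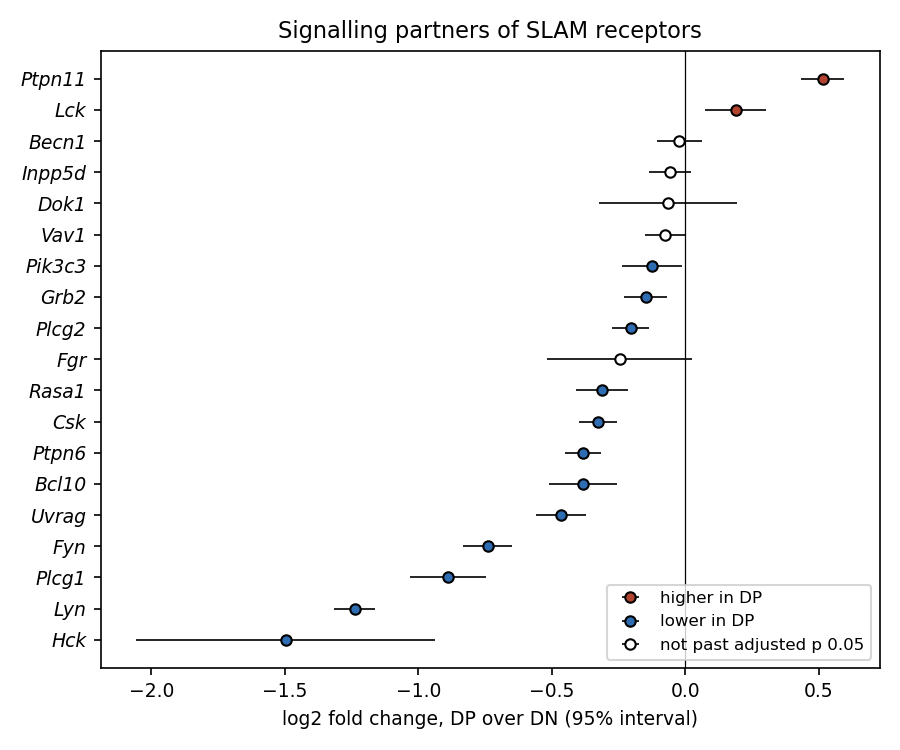
Log2 fold change of DP over DN with 95% intervals for the 19 tested signalling partners of SLAM receptors. Red points were called higher in DP, blue points lower, and open points were not past an adjusted p of 0.05. Ptpn11 and Lck lie right of 0, and Lyn, Plcg1, Fyn and 9 further genes lie left of 0 with intervals that leave it out.

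Of the inhibitory phosphatases, Ptpn6 (SHP-1) averaged 832 ± 11.1 CPM in DP and 1084 ± 2.09 CPM in DN, with a log2 fold change of -0.38 ± 0.03 (adjusted p = 1.29e-15, edgeR). Inpp5d (SHIP-1) averaged 215 ± 7.23 CPM in DP and 223 ± 6.06 CPM in DN, a difference that did not pass the test (adjusted p = 0.181, edgeR). Lck, a Src-family kinase known mainly from T cells, averaged 57.8 ± 1.41 CPM in DP and 50.7 ± 4.00 CPM in DN, with a log2 fold change of 0.19 ± 0.06 (adjusted p = 0.00266, edgeR). Ptpn6, Inpp5d and Lck were chosen for mention after their values were seen.

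Of the markers of other cells, the macrophage, erythroid and naive B cell lists had lower sums in DP. The T cell list above did not, and its DP sum was mostly Thy1. Cd3d, Cd3e, Cd3g, Cd4 and Lat were each lower in every DP library than in any DN library. Among these only Cd4 was called, and the Cd3 genes were below the filter and not tested. Thy1, Trac, Icos and Cd6 averaged higher in DP, and among these only Thy1 was called. The 15 macrophage and monocyte markers summed to 14.5 to 18.1 CPM in DP libraries and 35.4 to 39.8 CPM in DN libraries, with 9 of 10 tested called lower in DP and Cd14 at 0 in all 6 libraries. The most significant was Lyz2 (lysozyme), at 1.91 CPM in DP and 6.14 CPM in DN. The 9 erythroid markers summed to 16.7 to 18.7 CPM in DP libraries and 63.5 to 73.5 CPM in DN libraries, with all 7 tested called lower. The 7 naive B cell markers summed to 213 to 225 CPM in DP libraries and 382 to 397 CPM in DN libraries, with 5 of 6 tested called lower and 1 higher. Of all tested genes, 37.6% were called lower and 38.3% higher. The part of any of these markers in the differences of the SLAM genes was not tested.

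The 9 plasma cell markers gave no single direction, with 5 of 8 tested called higher in DP and 2 lower, at a summed level of 428 to 439 CPM in DP libraries and 464 to 468 CPM in DN libraries. These shares stand against 38.3% and 37.6% of all tested genes. Irf4, a transcription factor of activated B cells and plasma cells, was called higher at 70.4 CPM in DP and 12.0 CPM in DN. Jchain, the joining chain of secreted antibodies, was called lower at 154 CPM in DP and 277 CPM in DN. Slamf7, a known surface marker of plasma cells, thus had the direction of the 2 markers called lower, Jchain among them. It did not have that of the 5 called higher, Irf4 among them.

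The genes whose pattern over the 6 libraries was most like that of Slamf1, by Euclidean distance of centred log2 CPM, were H2-Q5 at a distance of 0.0283, Zfp512b at 0.0328 and Pygo2 at 0.0537. Those most like Cd84, whose log2 fold change equalled that of Slamf7 to 2 decimals, were 4933412E12Rik at 0.124, Gm18342 at 0.133 and Zup1 at 0.135. Patterns of this kind were common, since 1443 genes lay within a distance of 0.3 of Slamf1 and 202 within the same distance of Cd84.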

How the data were processed

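The values used were read counts per gene as deposited, 1 table per library, not normalised. The submitters' processing notes name HTSeq 0.13.5, STAR 2.7.10a, Trim Galore 0.6.6 and build mm10. Annotation release, strand setting and treatment of molecular identifiers were not given in the sources used here. Without strand, reads of Slamf7 and its antisense gene Gm37787 (423 shared bases, at most 2 counts per library) could not be told apart, nor those of Sh2d1a and Tenm1 (1465 shared bases, 26.6% of the exons of Sh2d1a, at most 1 count of Tenm1 per library). Each table held 55401 genes and 5 summary rows with 9.56% of counts on average in DP and 12.6% in DN, which were left out.

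Libraries were grouped by title. DP was compared with DN by edgeR 4.0.16 in R 4.3.3 (quasi-likelihood F test, robust, TMM factors of 0.926 to 0.941 in DP and 1.069 to 1.071 in DN, filterByExpr with a minimum count of 10, no block, Benjamini-Hochberg over 11296 genes, threshold 0.05). The fit was tried first on simulated data in which few genes differed. That trial did not cover how TMM factors behave when most genes differ. Standard errors came from the fold change and its F statistic. CPM used TMM-adjusted library sizes. Positions, exon lengths and coding sequences came from GENCODE M21, which held all 9 members with the same version. Pairs of DP libraries (chi-square per degree of freedom 1.96 to 3.24) and of DN libraries (1.98 to 3.26) differed by more than sampling noise. Members and lists were chosen with earlier results of these data known. Named genes were all members, relatives with counts, and up to 4 per list with the smallest p (plus 3 nearest patterns for 2 members). Some genes that this rule took are not reported here. Others named were chosen after their values were seen, among them Gm10521, Klrb1c, Cd14 and partners shown in the plot.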

Additional observations from a re-analysis of the deposited data

How the results depend on the processing

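Slamf7, Slamf6, Cd84 and Cd2 were called lower in DP in all 16 alternatives (other scalings, filters, tools, the block and each library left out), with log2 fold changes of -1.37 to -1.10, -1.12 to -0.84, -1.37 to -1.08 and -2.54 to -2.27. Slamf1 was called higher in 15 and Ly9 in 6 (and lower in 1). Members called higher numbered 1 in place of 2 with DESeq2 size factors, upper-quartile factors, a stricter filter, DESeq2 or immunoglobulin genes left out, the 1 being Slamf1. With library totals alone, 0 members were higher and 5 lower in DP (edgeR; Slamf1 -0.022, Ly9 -0.10, Cd48 -0.16), 1 partner and 4 neighbours of the locus were higher, and the called genes numbered 8647 in all. Cd48 also turned sign with upper-quartile factors (-0.0016) and a stricter filter (-0.017), and with that filter 0 relatives were higher because Cd244a was not tested. Apart from that loss and the shift of the median of all genes with library totals, the cause was not tested.

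Leaving out 1 library at a time gave 8251 to 8558 called genes, 1 to 2 members higher, 3 lower, 0 to 1 relatives higher, 6 to 9 neighbours higher, and log2 fold changes of -0.012 to 0.087 for Cd48 (below 0 without DP replicate 3), -0.38 to 0.048 for Sh2d1b1 (above 0 without DN replicate 1), 0.13 to 0.21 for Slamf1 and 1.10 to 1.72 for Cd244a (not tested without DP replicate 1 or 3). Share differences, DP minus DN, ranged over 6.39 to 6.89 points for Slamf1, -4.82 to -3.96 for Slamf6, -14.7 to -13.9 for Slamf7, 2.75 to 3.27 for Cd48, -1.88 to -1.54 for Cd84 and 10.6 to 11.1 for Ly9.

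From counts per kb, the share differences were 3.20 points for Slamf1, -2.23 for Slamf6, -15.6 for Slamf7, -0.0914 for Slamf9, 6.86 for Cd48 and 9.20 for Ly9. With longest-transcript lengths, levels in DP and DN were 14.4 and 12.7 CPM per kb for Slamf1, 9.23 and 17.4 for Slamf6, 24.1 and 54.4 for Slamf7, 3.47 and 7.79 for Cd84, and 45.5 and 42.5 for Ly9.

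No clear pairing of same-numbered libraries was seen (correlations of their deviations 0.0562, -0.0061 and -0.0182). Differently numbered pairs ranged from -0.0354 to 0.0397. With 3 libraries per subset these values cannot exclude that some libraries share a mouse. With the replicate number as a block, 8589 genes were called, with 2 members higher and 3 lower. Depth limits Slamf9, Sh2d1a, Slamf8 and Cd244a.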
